A study of Mus musculus with 3 samples.

Results

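In NIH/3T3 mouse fibroblasts, 133 genes had higher transcript levels than mock-treated cells both at the end of exposure to the DNA methylation inhibitor 5aza-dC and 14 days after the drug had been withdrawn. They are called lasting genes here. A gene was taken when its deposited microarray intensity, on a log2 scale with values under 16 set to 16, was at least 1 above Mock in both Recovery and 5aza-dC, and its probe was detected in both (detection p below 0.01). Of 19057 named genes on the array, 8860 were detected in at least 1 group and 149 met these thresholds. The remaining 133 were kept after 12 symbols (Rhox5, Tex19.1, Cdkn1c, Dcn, Gab1, Piwil2, Dazl, Krt8, Krt14, H2-D1, Nlrc5 and Pparg) and those starting with Zfp, Slc, Trim, Hox, Hist or Pcdh had been left out, which removed 16 genes. The genes were therefore chosen by the Recovery, 5aza-dC and Mock values themselves, and the differences from Mock given below describe that choice and carry no test.

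Total RNA was hybridised to Illumina bead arrays of 45281 probes in 3 groups, each with 1 deposited column. Recovery was NIH/3T3 given 1 uM 5aza-dC (decitabine), renewed each day over 3 days, and then grown for 14 days without it. The 5aza-dC group had the same exposure and no recovery, and Mock was NIH/3T3 that was mock treated. The labels give no culture time for Mock. Effects of the 14 further days in culture therefore cannot be told apart from those of the drug in Recovery minus Mock. All were kept in the same medium with foetal calf serum. The series description names duplicate independent experiments, but whether a column is a mean, a pool or 1 array is not given in the labels, so the spread between cultures is not known and no difference here has a p-value. NIH/3T3 is 1 established line, and a higher level in a culture can come from more RNA per cell or from more cells that make it, which bulk RNA cannot tell apart.

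5aza-dC, a nucleoside drug, enters newly made DNA and traps the DNA methyltransferases there, so that cytosine methylation is lost as cells divide. Methylation in mammals sits mostly on CpG dinucleotides, and dense methylation of a promoter is a known form of stable gene silencing that is copied at each division. Expression was the only quantity measured here, and methylation was not. Detection was similar in the groups, with 14070, 15105 and 14465 probes detected in Recovery, 5aza-dC and Mock. Of 9 measured fibroblast markers, 9 were detected in each group, and their summed intensity was 23200 in Recovery, 15888 in 5aza-dC and 19336 in Mock, most of it from Vim and Sparc. Single markers differed in direction: Col1a1 differed from Mock by 0.43 in Recovery and -0.65 in 5aza-dC, while S100a4 was lower than Mock in both, by -0.998 in Recovery and -1.73 in 5aza-dC.

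Across the detected genes, 217 were at least 1 log2 unit higher in Recovery than in Mock, which is 2.45% of the genes, and 771 were so in 5aza-dC, which is 8.7%. The 149 genes high in both make 1.68% of the detected genes, 68.7% of those called in Recovery and 19.3% of those called in 5aza-dC. Both differences were taken from the same Mock column, so a low Mock value raises both at once. Among the 133 lasting genes the median difference was 1.30 in Recovery (1.00 to 3.27) and 1.72 in 5aza-dC (1.02 to 6.03), against medians of 0.00 and 0.01 over all detected genes. At least 4-fold differences from Mock were seen for 19 of them in Recovery, 53 in 5aza-dC and 16 in both. Most were of modest intensity. The median was 76.5 in Recovery, 125.7 in 5aza-dC and 27.4 in Mock, and 82 of the 133 had a Recovery value under 100. In Mock 27 were not detected, and for these the fold is given against a Mock reference level. This is the higher of the probe's own value and 10.8, the lowest intensity of any detected Mock probe. Some other probes not detected in Mock had values above 10.8. The reference level is therefore no upper limit for Mock, and these folds are no lower bounds. The floor of 16 makes the log2 differences of such genes smaller than these folds. The number of lasting genes depends strongly on how low values are handled: 209 genes met the rule with a floor of 8, 73 with neqc values and 30 on a log2(value + 50) scale.

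**Figure D1:**
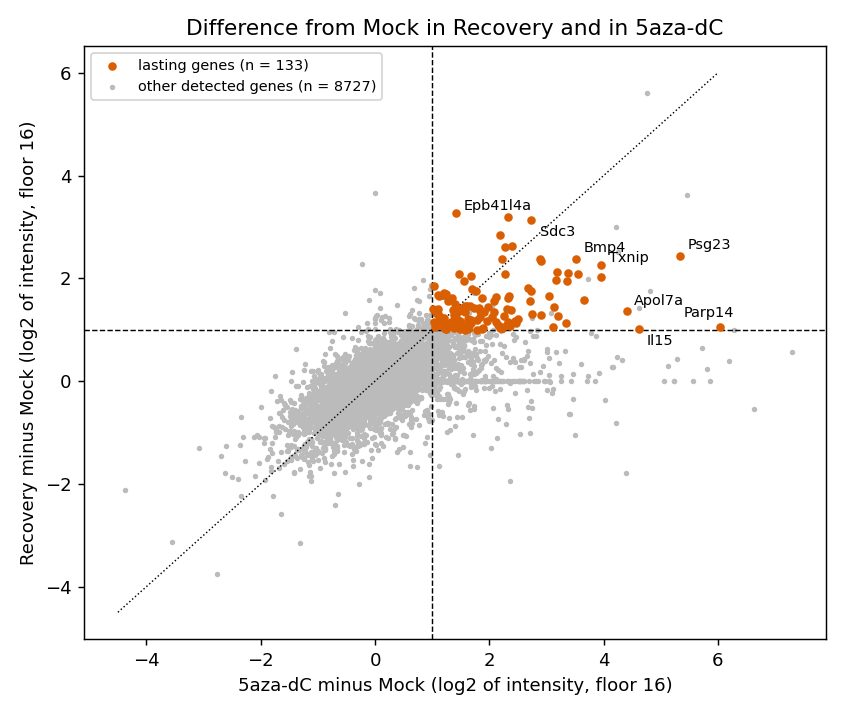
Each point is a detected gene, with its difference from Mock in 5aza-dC on the x axis and in Recovery on the y axis (log2 of intensity, floor 16). The 133 lasting genes lie above 1 on both axes by the rule (dashed lines), and those above the dotted line of equal difference, such as Epb41l4a and Sdc3, were higher in Recovery than in 5aza-dC. Grey points beyond both dashed lines are left-out symbols.

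The lasting genes with the highest Recovery values over Mock included several of the cell surface, matrix and complement. Epb41l4a, a membrane-linked protein of the band 4.1 family, measured 163 in Recovery, 45.2 in 5aza-dC and 16.9 in Mock, a Recovery difference of 3.27. Cavin2, a coat protein of caveolae, measured 229 in Recovery, 126 in 5aza-dC and 25.02 in Mock (differences 3.20 and 2.33). Sdc3, the cell surface heparan sulfate proteoglycan syndecan-3, measured 287 in Recovery, 215 in 5aza-dC and 32.5 in Mock (differences 3.14 and 2.73). All of these were higher in Recovery than in 5aza-dC and lowest in Mock. Epb41l4a did not meet the rule with neqc values or on the log2(value + 50) scale, while Cavin2 and Sdc3 met it under all 9 alternatives tried.

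The other members of the Cavin and syndecan families on the array did not meet the rule. Cavin3 was higher than Mock in both groups but under the threshold, at 1192 in Recovery, 1048 in 5aza-dC and 690 in Mock. Cavin1 measured 368 in Recovery, 210 in 5aza-dC and 220 in Mock, and Cavin4 48.3 in Recovery, 55.2 in 5aza-dC and 59.7 in Mock. Sdc1 and Sdc2 differed from Mock by 0.11 and 0.44 in Recovery and by -0.22 and 0.06 in 5aza-dC. Sdc4 was lower in both groups than in Mock, at 699 in Recovery and 511 in 5aza-dC, against 1163 in Mock.

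Promoter windows of 5 lasting genes are shown because they span the range of CpG content among the genes with large or tissue-restricted responses. Each is the RefSeq window on GRCm38.p6 from 250 bases before to 50 after the gene's start, written 5′ to 3′ on the gene's strand, with every CG in capitals. Sdc3 is at chr4:130792287-130792586 (plus strand), Cavin2 at chr1:51288876-51289175 (plus strand) and Bmp4 at chr14:46390620-46390919 (minus strand). Psg23 is at chr7:18616452-18616751 (minus strand) and Tex13b at chrX:140813384-140813683 (minus strand).
Sdc3: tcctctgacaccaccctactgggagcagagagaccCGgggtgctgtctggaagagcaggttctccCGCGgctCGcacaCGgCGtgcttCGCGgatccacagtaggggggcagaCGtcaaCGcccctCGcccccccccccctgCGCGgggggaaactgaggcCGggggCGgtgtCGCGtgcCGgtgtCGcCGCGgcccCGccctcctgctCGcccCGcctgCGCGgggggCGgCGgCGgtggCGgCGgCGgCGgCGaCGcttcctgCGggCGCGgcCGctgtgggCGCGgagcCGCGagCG
Cavin2: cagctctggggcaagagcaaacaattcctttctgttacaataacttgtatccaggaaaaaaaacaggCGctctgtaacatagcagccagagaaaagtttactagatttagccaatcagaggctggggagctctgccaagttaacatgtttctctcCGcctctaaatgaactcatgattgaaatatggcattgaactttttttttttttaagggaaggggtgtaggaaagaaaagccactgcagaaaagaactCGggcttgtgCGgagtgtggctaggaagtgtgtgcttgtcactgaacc
Bmp4: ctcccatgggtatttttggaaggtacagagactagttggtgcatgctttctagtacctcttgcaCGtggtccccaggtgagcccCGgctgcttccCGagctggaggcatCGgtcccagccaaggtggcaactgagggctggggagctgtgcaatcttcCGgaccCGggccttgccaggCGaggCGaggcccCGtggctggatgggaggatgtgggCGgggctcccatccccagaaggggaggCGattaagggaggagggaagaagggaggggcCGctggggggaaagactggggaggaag
Psg23: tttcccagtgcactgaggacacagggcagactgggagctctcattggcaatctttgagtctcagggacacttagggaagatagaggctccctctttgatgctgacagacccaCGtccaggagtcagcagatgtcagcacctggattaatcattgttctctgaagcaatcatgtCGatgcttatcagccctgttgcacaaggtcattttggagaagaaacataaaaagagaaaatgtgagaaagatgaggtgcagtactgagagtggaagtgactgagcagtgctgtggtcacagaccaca
Tex13b: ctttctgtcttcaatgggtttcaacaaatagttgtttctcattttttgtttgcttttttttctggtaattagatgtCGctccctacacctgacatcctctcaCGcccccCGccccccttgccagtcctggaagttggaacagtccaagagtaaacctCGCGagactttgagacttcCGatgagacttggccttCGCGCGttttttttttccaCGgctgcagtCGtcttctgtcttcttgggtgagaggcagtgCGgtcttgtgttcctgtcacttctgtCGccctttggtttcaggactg

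The Sdc3 window held 44 CG dinucleotides, and 2.25% of the 32851 windows in the table held at least as many. The Tex13b window held 13 and the Bmp4 window 12. The Cavin2 window held 4 and the Psg23 window 2, against medians of 7 over all windows and 21 over the 7207 detected genes with a window. At least as many were held by 68.6% of windows for Cavin2 and by 85.9% for Psg23. Cavin2 and Sdc3 had nearly the same Recovery difference, with a window below both medians in Cavin2 and among the denser ones in Sdc3. They are 2 picked genes, and a relation of CpG content to the differences was not tested. Only 95 of the 133 lasting genes (71.4%) matched the promoter table, so a comparison of CpG content or of motifs between the lasting genes and other genes is void and is not given.

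Prelp, a leucine-rich proteoglycan of connective tissue, measured 116 in Recovery, 72.5 in 5aza-dC and 7.78 in Mock, where it was not detected. Its Recovery value was 10.7-fold the Mock reference level. Masp1, a protease that starts the lectin pathway of complement, measured 2133 in Recovery, 1709 in 5aza-dC and 352 in Mock. Its relative Masp2 was flat at 45.4 in Recovery, 44.5 in 5aza-dC and 42.2 in Mock. Cemip, which is needed for the breakdown of hyaluronan, measured 89.4 in Recovery, 70.1 in 5aza-dC and 21.8 in Mock. All of Prelp, Masp1 and Cemip were higher in Recovery than in 5aza-dC. Emilin2, a glycoprotein of elastic fibres, measured 60.8 in Recovery, 89.5 in 5aza-dC and 27.9 in Mock.

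Other surface genes were nearer to Mock in Recovery. Gpnmb, a glycoprotein of lysosomes and melanosomes, measured 535 in Recovery, 2257 in 5aza-dC and 179 in Mock. Selp, the leukocyte adhesion protein P-selectin, measured 84.2 in Recovery, 350 in 5aza-dC and 40.5 in Mock. Cd59a, which blocks the complement attack complex, measured 118 in Recovery, 262 in 5aza-dC and 57.6 in Mock. Of the 9 genes put in this group, 5 were higher in Recovery than in 5aza-dC, where 32 of all 133 lasting genes were. Lower by at least 1 log2 unit were 3 of the 9, against 32 of the 133. This group and those that follow were formed from the genes' known roles after the members were known, and they hold 67 of the 133. Examples beyond the largest differences, and the relatives of lasting genes, were likewise chosen after their values were seen.

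**Figure D2:**
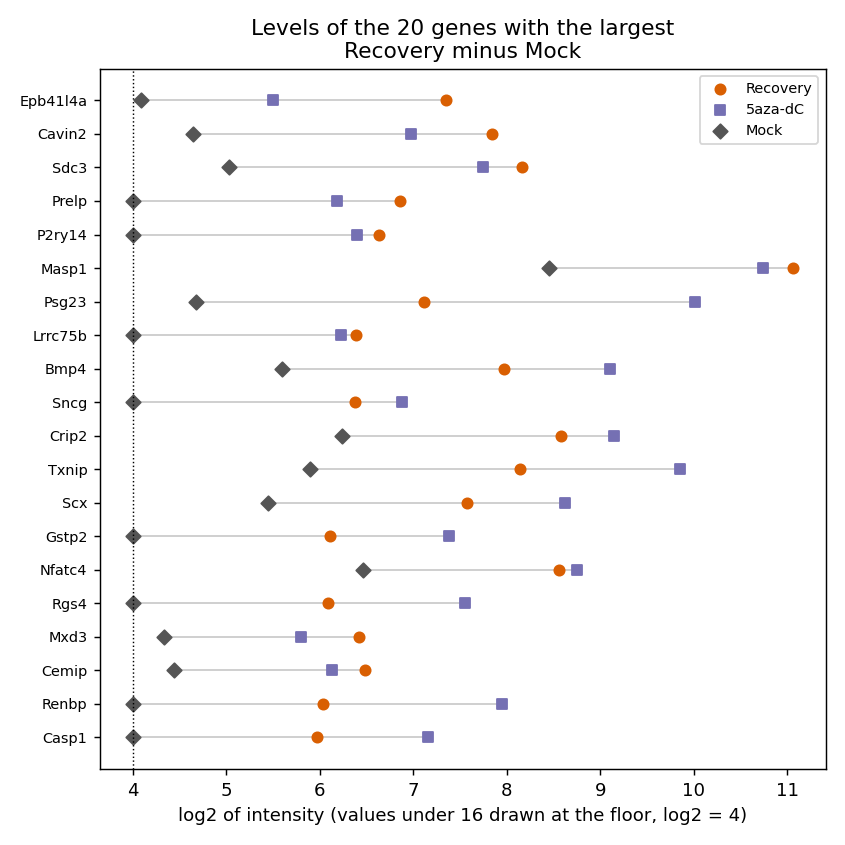
Log2 intensity of the 20 lasting genes with the largest Recovery minus Mock difference, with Recovery, 5aza-dC and Mock as separate markers and 1 deposited value per group. Values under 16 are drawn at the floor. Recovery lies right of 5aza-dC in Epb41l4a, Cavin2, Sdc3, Prelp, P2ry14, Masp1, Lrrc75b, Mxd3 and Cemip and left of it in the others.

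Secreted signals made a group of 6 lasting genes, with medians of 1.40 in Recovery and 2.02 in 5aza-dC. Bmp4, a bone morphogenetic protein, measured 252 in Recovery, 552 in 5aza-dC and 48.2 in Mock (differences 2.38 and 3.52). None of the other 10 measured Bmp genes met the rule. Only Bmp1 of these was detected, at 2035 in Recovery, 2601 in 5aza-dC and 1875 in Mock. Smad6, an inhibitor of bone morphogenetic protein signalling, was a lasting gene of the receptor and relay group, at 55.0 in Recovery, 51.5 in 5aza-dC and 19.5 in Mock. Tgfb3 measured 159 in Recovery, 169 in 5aza-dC and 62.8 in Mock, whereas Tgfb2 was lower than Mock in both, at 24.4 in Recovery and 33.6 in 5aza-dC, against 41.1 in Mock. The Wnt ligand Wnt6 measured 47.9 in Recovery, 52.2 in 5aza-dC and 17.5 in Mock. Gdf1, another ligand of the TGF-beta family, measured 64.5 in Recovery, 146 in 5aza-dC and 29.0 in Mock. Angpt1, a ligand of the receptor Tie2, was not detected in Mock. It was 5.12-fold the Mock reference level in Recovery and 4.79-fold in 5aza-dC. Of these ligands Tgfb3, Wnt6 and Angpt1 stood within 0.2 log2 units in Recovery and 5aza-dC, while Bmp4, Gdf1 and the cytokine Il15 were lower in Recovery by more than 2-fold.

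Among receptors, P2ry14, a receptor for UDP-sugars, measured 99.6 in Recovery, 84.5 in 5aza-dC and 13.1 in Mock. Pdgfra, the alpha receptor for platelet-derived growth factor, measured 136 in Recovery, 193 in 5aza-dC and 53.3 in Mock. The beta receptor Pdgfrb had another pattern, with 50.9 in Recovery, 23.3 in 5aza-dC and 21.4 in Mock, and is no lasting gene. Rgs4, which switches off G protein signalling, was not detected in Mock (10.8) and measured 68.1 in Recovery and 188 in 5aza-dC. Stat5a, a transcription factor of cytokine signalling, and Socs2, a suppressor of the same signalling, were both lasting, with Recovery differences of 1.05 and 1.10.

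The 8 transcription factors grouped here had a median difference of 1.77 in Recovery and 1.16 in 5aza-dC. In Recovery 5 of them were higher than in 5aza-dC, where 32 of all 133 lasting genes were. Of these 5, Sox5, Mxd3, Nfatc1 and Etv1 did not meet the rule with neqc values, and Dbp did. Stat5a and the repressor Hbp1, placed in other groups, were lower in Recovery than in 5aza-dC, by -0.37 and -0.70. Scx, a factor of tendon cells, measured 191 in Recovery, 395 in 5aza-dC and 43.6 in Mock. Nfatc4, a factor switched on by calcineurin, measured 378 in Recovery, 431 in 5aza-dC and 88.4 in Mock. Nfatc1, of the same family, measured 172 in Recovery, 115 in 5aza-dC and 53.7 in Mock. Nfatc3 was flat, at 1819 in Recovery, 1803 in 5aza-dC and 1665 in Mock, and Nfatc2 was not detected. Sox5, a cartilage factor, measured 96.6 in Recovery, 54.7 in 5aza-dC and 26.9 in Mock, and its 5aza-dC difference of 1.03 is near the threshold. Mxd3, a partner of Max, measured 85.5 in Recovery, 55.5 in 5aza-dC and 20.1 in Mock, and the clock output factor Dbp 314 in Recovery, 222 in 5aza-dC and 98.2 in Mock.

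Genes known to restrain growth or to sense nutrients made 7 of the lasting genes, and all 7 were lower in Recovery than in 5aza-dC, with differences of -1.71 to -0.24. Of all 133 lasting genes, 101 were lower in Recovery than in 5aza-dC. Txnip, which inhibits thioredoxin and limits glucose uptake, measured 283 in Recovery, 924 in 5aza-dC and 59.3 in Mock. Hbp1, a repressor of cell cycle genes, measured 739 in Recovery, 1203 in 5aza-dC and 241 in Mock. The tumour suppressor Rb1 measured 76.5 in Recovery, 90.2 in 5aza-dC and 38.0 in Mock. Castor1, known in human cells as an arginine sensor that holds back the growth kinase complex mTORC1, measured 522 in Recovery, 780 in 5aza-dC and 218 in Mock. Its relative Castor2 measured 50.7 in Recovery, 74.97 in 5aza-dC and 20.03 in Mock. Pik3ip1, an inhibitor of PI 3-kinase, was not detected in Mock. It was 3.50-fold the Mock reference level in Recovery and 6.13-fold in 5aza-dC. Ypel3 measured 446 in Recovery, 746 in 5aza-dC and 176 in Mock, while the relative Ypel5 was 0.49 above Mock in Recovery and 1.05 in 5aza-dC. In the list of mitosis and DNA replication genes, 44 of 55 measured were detected and none was lasting, where 1.5% of all detected genes were. Their medians were 0.24 in Recovery and 0.25 in 5aza-dC.

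Interferon-stimulated genes were high in 5aza-dC and, with 1 exception, not lasting. Of 63 measured, 52 were detected, with median differences of 0.00 in Recovery and 3.05 in 5aza-dC. Of these 52, 1 was called in Recovery and 46 in 5aza-dC, against 2.45% and 8.7% of all detected genes. The exception was Parp14, an ADP-ribosyltransferase, at 40.1 in Recovery, 1271 in 5aza-dC and 19.4 in Mock, and its difference of 1.05 in Recovery is near the threshold. The 2 further Parp14 probes, dim even in 5aza-dC at 29.6 and 24.4, were not detected in Recovery. Parp14 did not meet the rule with neqc values or on the log2(value + 50) scale. Igtp, an interferon-inducible GTPase, was just outside the threshold, at 37.4 in Recovery, 1456 in 5aza-dC and 18.7 in Mock. The cytokine Il15 had a similar course, with 75.1 in Recovery, 913 in 5aza-dC and 37.1 in Mock, as did Apol7a, at 41.3 in Recovery, 339 in 5aza-dC and 15.5 in Mock. The increase over Mock in Recovery was 1.65% of that in 5aza-dC for Parp14, 4.34% for Il15 and 7.98% for Apol7a.

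Other genes of innate immunity stood nearer to their 5aza-dC level. Casp1, the protease that activates interleukin-1, was not detected in Mock (2.89) and measured 62.5 in Recovery and 143 in 5aza-dC. Tlr6 was not detected in Mock and was 4.36-fold the Mock reference level in Recovery and 6.27-fold in 5aza-dC. Tlr4, the receptor for bacterial lipopolysaccharide, measured 53.1 in Recovery, 61.3 in 5aza-dC and 24.3 in Mock. Nlrx1, a mitochondrial protein of the NLR family, stood level, at 78.2 in Recovery and 78.7 in 5aza-dC, against 23.2 in Mock. Tlr2, which pairs with Tlr6, was 0.34 above Mock in Recovery and 1.29 in 5aza-dC. Markers of blood and immune cells were mostly undetected, with 3, 4 and 2 of 31 detected in Recovery, 5aza-dC and Mock.

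Genes of germ cells, the early embryo and the placenta were low or undetected in Mock. Of the 8 in this group, 6 were not detected there, against 27 of all 133 lasting genes. Lower in Recovery than in 5aza-dC by at least 1 were 4 of the 8, against 32 of the 133. Psg23, a pregnancy-specific glycoprotein of the placenta, measured 138 in Recovery, 1034 in 5aza-dC and 25.5 in Mock, a Recovery increase of 11.2% of that in 5aza-dC. The 11 other Psg genes on the array were not detected in any group. Tuba3b, an alpha-tubulin of the testis, was not detected in Mock and measured 38.6 in Recovery and 146 in 5aza-dC. The closely similar Tuba3a measured 21.5 in Recovery, 97.2 in 5aza-dC and 14.7 in Mock, and bead probes may not separate the pair. Nlrp4c, an NLR family gene of the female germ line, was not detected in Mock. It was 4.64-fold the Mock reference level in Recovery and 12.1-fold in 5aza-dC.

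A few germ cell genes were within about 0.5 log2 units of their 5aza-dC level. Asz1, a germ cell protein of the piRNA pathway that restrains transposons, was not detected in Mock (8.39) and measured 39.3 in Recovery and 34.3 in 5aza-dC. Tex13b, an X-linked testis gene, was not detected in Mock (-4.88) and measured 41.0 in Recovery and 57.1 in 5aza-dC. The X-linked Gm364 was not detected in Mock (-1.81) and measured 38.3 in Recovery and 34.6 in 5aza-dC. In the list of germ cell genes of transposon control, 13 of 30 measured were detected. Of these 13, 3 were called in Recovery and 7 in 5aza-dC, against 2.45% and 8.7% of all detected genes. Among the 3 is Asz1 and the other two were left out by name. Dppa5a, a gene of pluripotent cells, was just inside the threshold, at 67.6 in Recovery, 116 in 5aza-dC and 33.7 in Mock. A further Dppa5a probe, at 2.33 in Recovery, 16.1 in 5aza-dC and 1.89 in Mock, was detected only in 5aza-dC. The relative Dppa4 measured 7.98 in Recovery, 97.3 in 5aza-dC and 1.56 in Mock and was likewise detected only in 5aza-dC.

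Of genes best known from the nervous system, Sncg, which codes for gamma-synuclein, was not detected in Mock. It was 7.69-fold the Mock reference level in Recovery and 10.9-fold in 5aza-dC. Nrn1, a secreted promoter of neurite growth, measured 190 in Recovery, 209 in 5aza-dC and 68.5 in Mock. Cbln1, a synapse organizer, measured 163 in Recovery, 136 in 5aza-dC and 53.3 in Mock. Lynx1, a modulator of nicotinic receptors, measured 66.1 in Recovery, 131 in 5aza-dC and 27.4 in Mock, and Olfm1 measured 128 in Recovery, 143 in 5aza-dC and 62.2 in Mock. Of 33 measured neural markers, 7 were detected in Recovery, 12 in 5aza-dC and 7 in Mock, with summed intensities of 856 in Recovery, 1203 in 5aza-dC and 839 in Mock.

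Metabolic enzymes and stress proteins gave 13 lasting genes, of which 12 were lower in Recovery than in 5aza-dC and 6 by at least 1. Among all 133 lasting genes, 101 were lower and 32 by at least 1. Gstp2, a glutathione transferase, was not detected in Mock (7.86) and measured 68.9 in Recovery and 167 in 5aza-dC, while Gstp1 was flat at 8950 in Recovery, 8190 in 5aza-dC and 8091 in Mock. Renbp, a sugar epimerase, was not detected in Mock (8.09) and measured 65.3 in Recovery and 247 in 5aza-dC. Gldc, of the glycine cleavage system, measured 52.98 in Recovery, 245 in 5aza-dC and 24.2 in Mock. The small heat shock proteins Cryab and Hspb1 were both lasting: Cryab measured 229 in Recovery, 317 in 5aza-dC and 73.1 in Mock, and Hspb1 measured 357 in Recovery, 748 in 5aza-dC and 168 in Mock. They were the 2 lasting genes among 37 detected stress, oxidative stress and metal response genes, where 1.5% of all detected genes were lasting. Of these 37, 11 were called in 5aza-dC, where 8.7% of all detected genes were. Plin4, a lipid droplet protein, was the 1 gene of this group that was higher in Recovery, at 52.2 against 37.9 in 5aza-dC and 14.4 in Mock. The phosphatidate phosphatase Lpin2 measured 39.0 in Recovery, 54.1 in 5aza-dC and 19.3 in Mock. Car5b, a mitochondrial carbonic anhydrase, measured 228 in Recovery, 300 in 5aza-dC and 85.2 in Mock. Mocos, the molybdenum cofactor sulfurase, was lower in Recovery by more than 2-fold, at 39.5, against 108 in 5aza-dC and 15.998 in Mock. Ppp1r3c, a glycogen-targeting subunit of protein phosphatase, was not detected in Mock. It was 4.97-fold the Mock reference level in Recovery and 9.84-fold in 5aza-dC.

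The 66 lasting genes outside these groups had differences of 1.00 to 3.27 in Recovery and 1.02 to 4.41 in 5aza-dC, and 10 of them were not detected in Mock. Of these 66, 15 were higher in Recovery than in 5aza-dC and 11 were lower by at least 1. Over all 133 lasting genes, 27 were not detected in Mock, 32 were higher and 32 were lower by at least 1. Crip2, a LIM domain protein, measured 383 in Recovery, 567 in 5aza-dC and 75.6 in Mock. Lrrc75b was not detected in Mock and stood at 83.6 in Recovery and 75.02 in 5aza-dC, 7.72-fold and 6.93-fold the Mock reference level.

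Set against the end of exposure, Recovery values were mostly lower. Of the 133 lasting genes, 101 were lower in Recovery than in 5aza-dC and 32 were higher, with a median difference of -0.47 against -0.02 over all detected genes. At least a 2-fold lower level was found for 32 (24.1%), against 6.33% of all detected genes, and at least a 2-fold higher level for 1, Epb41l4a, against 1.17%. Both sides of this difference were used to choose the genes, since a high 5aza-dC value helps a gene to pass, so these shares are a description. Among the 771 genes called higher in 5aza-dC, lasting ones included, 442 were at least 2-fold lower in Recovery. A lasting gene had to keep its Recovery call, which limits how far it could fall, so this count is a description too. The other 100 lasting genes lay within 1 log2 unit of their 5aza-dC level. On the linear scale, the increase over Mock in Recovery was a median of 64.1% of that in 5aza-dC, with quartiles at 40.3% and 99.0%. The largest excess of Recovery over 5aza-dC was in Epb41l4a (1.85), Cavin2 (0.87), Sox5 (0.82), Prelp (0.67), Mxd3 (0.62) and Nfatc1 (0.59). The largest shortfall was in Parp14 (-4.99), Il15 (-3.60), Apol7a (-3.04), Psg23 (-2.90), Gldc (-2.21) and Gpnmb (-2.08).

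**Figure D3:**
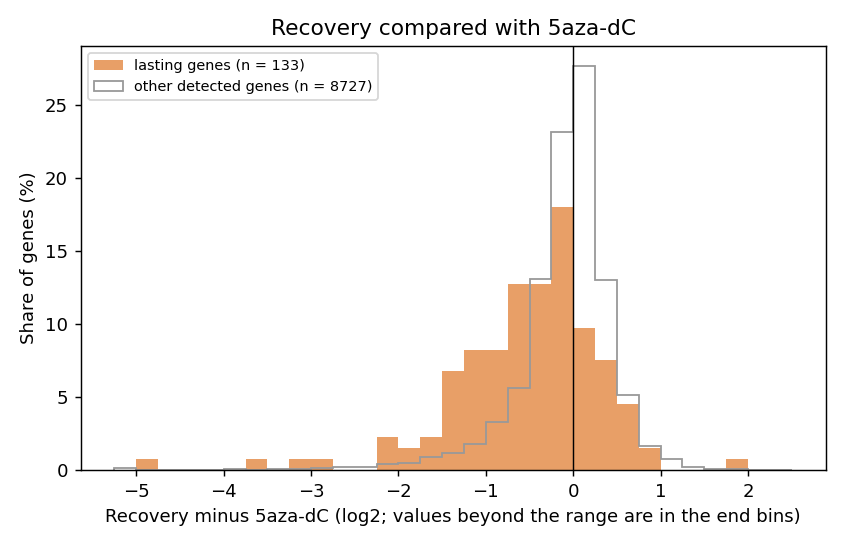
Share of genes (%) by Recovery minus 5aza-dC (log2), for the 133 lasting genes (filled) and the other 8727 detected genes (outline). The lasting genes centre at -0.47, with a tail of genes far below their 5aza-dC level and 1 gene more than 1 above it.

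Other probes of the same genes, which the rule did not use, give a second reading from the same samples. Of the 133 lasting genes 80 had another probe, and 43 had at least 1 detected in Recovery or 5aza-dC, 63 probes in all. Of these 63, 21 (33.3%, from 16 genes) were also at least 1 above Mock in both groups, against 0.759% of the 4743 other detected probes of all genes, these included. They come from the same RNA and the same Mock column, so this is a description. The medians were 0.60 in Recovery and 1.17 in 5aza-dC. Many of these probes are dim, and 31 had a value at or under the floor in some group. Of the 32 with a Mock value above the floor, 31 were above Mock in both groups and 19 by at least 1. The 3 further probes of Hbp1 gave Recovery differences of 1.58, 1.69 and 1.67 beside 1.62 for the probe used. Single further probes of Txnip (1.995), Gpnmb (1.78) and Wnt6 (1.51) were also near the probe used. The further probes of Epb41l4a (2) and of Sdc3, Bmp4, Psg23 and Tex13b (1 each) were detected in neither Recovery nor 5aza-dC. These genes therefore have no second reading.

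Some probes of a gene disagreed. A further Rb1 probe measured 17.5 in Recovery, 27.3 in 5aza-dC and 23.5 in Mock, a Recovery difference of -0.42 where the probe used gave 1.01. A further Igf2bp3 probe, of a fetal RNA-binding protein, was flat, at 25.8 in Recovery, 25.1 in 5aza-dC and 24.8 in Mock, where the probe used gave 35.2 in Recovery, 88.8 in 5aza-dC and 13.3 in Mock. Further probes of Il15 had Recovery differences of 0.21 and 0.00. Over all 3930 pairs of probes of 1 gene detected in every group, the Recovery minus Mock difference disagreed by a median of 0.20 and by 0.89 at the 95th percentile, and 90 of the lasting genes had a Recovery difference under 1.5.

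**Figure D4:**
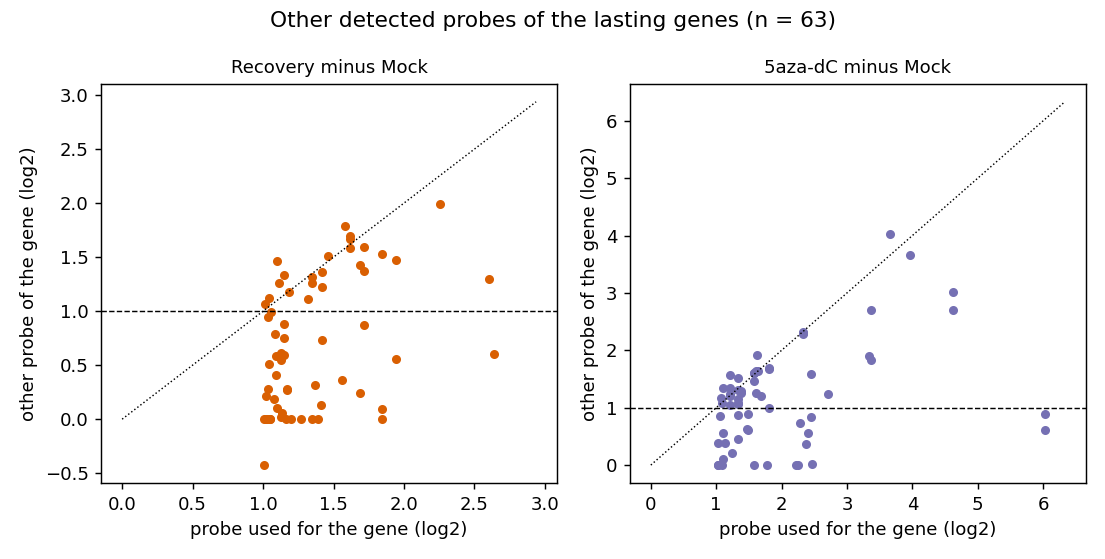
Difference from Mock (log2) of the 63 other detected probes of lasting genes, against that of the probe used for the gene, for Recovery (left) and 5aza-dC (right). The dotted line marks equal values and the dashed line 1, and 54 (Recovery) and 51 (5aza-dC) points lie under the dotted line, with 21 probes above 1 in both groups.

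The lasting genes were spread over all 20 chromosomes to which they could be assigned. Chromosome 7 held 16, 2.51% of its detected genes, and chromosome 15 held 10, 2.58%, the highest share, against 1.5% of all detected genes and a lowest share of 0.677% on chromosome 3. The X chromosome held 5 of 132 (3.79%), namely Renbp, Car5b, Tex13b, Gm364 and 8030474K03Rik, against 3.05% of all detected genes. With neqc values the X chromosome held 9.72% of the genes that met the rule. Among measured genes in chromosomal order, 3 pairs of lasting genes were neighbours: Gpnmb and Igf2bp3 on chromosome 6, Emilin2 and Lpin2 on chromosome 17, and Epb41l4a and Nrep on chromosome 18. Nrep measured 167 in Recovery, 198 in 5aza-dC and 54.1 in Mock. Of 128 detected neighbours that were not lasting, 1 (0.781%) was called in Recovery, Ecm1 beside Adamtsl4, and 11 (8.59%) in 5aza-dC. Neighbours that were lasting are not in these counts, so the shares are not set against those of all genes. Next to Casp1, for example, Casp4 measured 76.3 in Recovery, 526 in 5aza-dC and 106 in Mock.

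At the edge of the rule, Esyt3, Dppa5a and 8030474K03Rik were just inside, with Recovery differences of 1.003, 1.004 and 1.006. Just outside were Pgpep1, Igtp and Rassf7, with 0.997 each. Of 20 gene lists written for this line and drug, 10 held a lasting gene and 12 of the 133 were on any list. The fibroblast matrix list held 1 of 38 detected genes (Prelp), the epithelial list none of 19 (6, 17 and 8 of 47 measured were detected in Recovery, 5aza-dC and Mock), the p53 target list none of 33 and the DNA methylation machinery list none of 26. Over all detected genes the share was 1.5%, at which lists of this size hold few or no lasting genes. The counts are therefore a description. The epithelial count of 0 follows from the symbols left out by name: Krt8 and Krt14 met both thresholds, and no other epithelial gene was called in Recovery. Dcn of the fibroblast matrix list also met both thresholds and was left out by name.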

How the data were processed

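Total RNA of 3 NIH/3T3 groups, with 1 column each, was measured on Illumina bead arrays. One deposited table gives each probe's signal intensity before normalization, with its detection p-value, per the file headers. The table used for levels holds deposited intensity that the authors had background-subtracted and scaled, as its values show: 40.2%, 38.5% and 39.5% of Recovery, 5aza-dC and Mock values lie under 0, and every column averages 224.5. For both tables, the software is not given in the sources used. No column of another sample was used.

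The scaled intensity was set to at least 16 and log2 transformed, 1 probe was kept per gene (the highest mean), and detection p below 0.01 came from the other table. Of 45281 probes, 34885 had 1 gene symbol, 18 several and 10378 none in the platform annotation, and 132 of 133 lasting genes matched RefSeq by Entrez number. Alternatives used limma 3.58.1 (neqc) in R 4.3.3, and other steps ran in Python 3.11.15. The code of the rule was run on simulated data with 200 altered genes. These were brighter in Mock than most lasting genes, were set as detected and had changes above the threshold. The run therefore checks the code and says nothing of how the rule performs on dim genes. Precision is limited by the single column per group, and no test was possible.

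The genes and lists were chosen with earlier results of these data known. Named genes were the 20 with the largest Recovery minus Mock, the 6 at either end of Recovery minus 5aza-dC, up to 4 per list, neighbours, the 3 on either side of the threshold, and genes with an opposite probe, besides those said to be chosen later.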

Additional observations from a re-analysis of the deposited data

Results flagged for a closer look

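Probes for which the annotation used here names no gene were outside the comparisons above, and some showed the same pattern. Of 2100 such probes detected in at least 1 group, 23 (1.10%) were at least 1 log2 unit above Mock in both Recovery and 5aza-dC. The probe with the largest Recovery minus Mock measured 5444 in Recovery, 13014 in 5aza-dC and 235 in Mock, differences of 4.53 and 5.79. The second by that difference measured 7719 in Recovery, 14464 in 5aza-dC and 496 in Mock. No replicate check of these values is possible.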

How the results depend on the processing

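The number of lasting genes (133), the shares called in 5aza-dC (8.7%) and in Recovery (2.45%), and the other probes at least 1 higher in both groups (21) depended on the treatment of low values. A floor of 8 gave 209 genes, 11.9%, 3.58% and 38 probes, and a floor of 32 gave 76 genes, 6.29% and 1.67%. On a log2(value + 50) scale, which shrinks differences of dim probes by construction, there were 30 genes, 3.82%, 0.69% and 3 probes. With neqc values there were 73 genes, 70 of them among the 133, with 6.6%, 1.7% and 13 probes, and 9.72% of the genes lay on the X chromosome in place of 3.79%. The share called in 5aza-dC was 7.71% after quantile normalization and 8.07% at a detection p below 0.05. With no detection filter, where more genes are tested, the shares were 4.05% and 1.14%. The cause of the other shifts was not tested. The median of Recovery minus 5aza-dC (-0.47) was below 0 in every alternative run, at -0.276 with a floor of 32 and -0.295 with neqc values. Under all 9 alternatives 27 genes met the rule. No paired analysis was possible because each group has 1 column and no replicate number, and leaving out a replicate could not be run for the same reason.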
